A study of Mus musculus with 12 samples.

Results

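The gasdermin genes described here were Gsdmc, Gsdmc2, Gsdmc3, Gsdmc4, Gsdmd and Gsdme, which are 6 of the 55421 gene identifiers in a count table of mouse small intestine. They were taken by symbol, and the family was chosen by its level differences between the groups in these libraries. Their levels and fold changes are therefore given as descriptions, with no p-value. Of the 6 members 5 passed the filter on low counts and 1 did not: Gsdmc had 1 count in all 12 libraries together.

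Gasdermins are proteins whose amino-terminal part, once cut loose by a protease, inserts into the plasma membrane and forms pores. The pores release interleukin-1 family cytokines and can end in a lytic cell death called pyroptosis. Gsdmd is the target of the inflammatory caspases that inflammasomes switch on, Gsdme is a target of granzyme B, and the Gsdmc genes are expressed in gut epithelium, where interleukin-4 and interleukin-13 are known to raise them in worm infection.

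RNA sequencing of whole-gene counts covered 3 groups of 4 libraries. Apc Eif3h mice were VilCreER Apc fl/fl Eif3h fl/fl and carry day 4 in their labels, Apc mice were VilCreER Apc fl/fl at labelled day 4, and WT mice were wild type at labelled day 7. VilCreER is a Cre recombinase that tamoxifen activates. Its villin promoter works in gut epithelium, so cells outside the epithelium keep the floxed alleles intact. The Apc protein helps to degrade beta-catenin, the effector of Wnt signalling, and Eif3h encodes a subunit of the translation initiation factor eIF3. The treatment text gives all groups 2 intraperitoneal doses of tamoxifen at 80 mg/kg, 24 hours apart, and states a harvest at 7 days, which differs from the labelled day 4. Against WT, genotype and labelled day therefore cannot be told apart. The Apc Eif3h and Apc groups share a labelled day. The Apc Eif3h libraries came from 4 males, and Apc and WT from 3 males and 1 female each. The sources used here do not give ages or say whether WT mice carried Cre. They also do not say that replicates were separate animals, and p-values then measure only a spread between libraries that may be technical.

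Library totals lay between 10483112 and 21298301 counts. Eif3h was at 28.3, 43.1, 54.6 and 25.9 CPM (a gene's counts scaled to library size, with a correction for library composition) in Apc Eif3h libraries, against 168, 164, 158 and 175 CPM in Apc libraries and 142, 126, 134 and 135 CPM in WT libraries. All 4 Apc Eif3h libraries lay below the other 8, with the highest in replicate 3. Apc transcripts averaged 105 ± 12 CPM in Apc Eif3h, 114 ± 6.96 CPM in Apc and 94.2 ± 5.02 CPM in WT (SD, n = 4 each). A count over the whole gene can stay level when a floxed exon is lost, so these values check nothing. Summed pan-epithelial markers were at 7675 to 11048 CPM in Apc Eif3h, 8344 to 9823 CPM in Apc and 9565 to 13819 CPM in WT, with all 9 markers detected. Apc Eif3h replicate 2 carried B cell transcripts, with Ighm, the IgM heavy chain, at 462 CPM against 8.56 to 10.7 CPM in the other 3 Apc Eif3h libraries.

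The Gsdmc genes are tandem copies, and how alike they are limits what each count can say. In GRCm38 all lie on the minus strand of chromosome 15: Gsdmc (ENSMUSG00000079025) at 63775968 to 63808759, Gsdmc2 (ENSMUSG00000056293) at 63824346 to 63845177, Gsdmc3 (ENSMUSG00000055827) at 63857724 to 63878558 and Gsdmc4 (ENSMUSG00000055748) at 63891264 to 63912297. The cluster spans 136 kb. Gsdmd (ENSMUSG00000022575) lies on the plus strand of the same chromosome at 75862327 to 75867408, and Gsdme (ENSMUSG00000029821) on the minus strand of chromosome 6 at 50188888 to 50263862. Eif3h is on chromosome 15 too, 11.9 Mb from the Gsdmc cluster and 24 Mb from Gsdmd.

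Coding sequences were compared in global alignments. Gsdmc2 and Gsdmc3 were identical at 97.08% of aligned positions, and each was identical to Gsdmc4 at 93.02%. Gsdmc stood further off, at 82.77% to 84% identity with the other 3 copies. Identity between the Gsdmc copies and Gsdmd or Gsdme was 47.98% to 52.27%, and between Gsdmd and Gsdme 49.67%. The start of the coding sequence, from the ATG, shows this grouping, and capitals mark the 7 positions that are not the same in all 4 copies.
Gsdmc: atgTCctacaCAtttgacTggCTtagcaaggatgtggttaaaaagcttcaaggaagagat
Gsdmc2: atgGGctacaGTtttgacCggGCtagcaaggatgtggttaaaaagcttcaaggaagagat
Gsdmc3: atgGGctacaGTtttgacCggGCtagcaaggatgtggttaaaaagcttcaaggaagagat
Gsdmc4: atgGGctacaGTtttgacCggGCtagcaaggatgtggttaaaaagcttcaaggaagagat
At all 7 positions Gsdmc carries a base of its own while Gsdmc2, Gsdmc3 and Gsdmc4 are the same, so a read from this stretch cannot tell those 3 apart.

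The stretch of 60 coding bases in which Gsdmc2, Gsdmc3 and Gsdmc4 differ most from each other is shown next, since reads from it can be assigned to a copy. It covers coding bases 803 to 862 of Gsdmc2 and Gsdmc3 and 809 to 868 of Gsdmc4, and capitals mark the 16 positions that are not the same in all 3.
Gsdmc2: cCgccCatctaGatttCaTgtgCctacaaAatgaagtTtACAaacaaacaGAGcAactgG
Gsdmc3: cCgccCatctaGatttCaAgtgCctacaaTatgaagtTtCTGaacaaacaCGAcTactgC
Gsdmc4: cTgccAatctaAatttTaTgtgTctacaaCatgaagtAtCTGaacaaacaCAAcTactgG
By contrast, the longest run shared letter for letter by those 3 copies is 171 bases, coding bases 519 to 689 of Gsdmc4.
Shared run: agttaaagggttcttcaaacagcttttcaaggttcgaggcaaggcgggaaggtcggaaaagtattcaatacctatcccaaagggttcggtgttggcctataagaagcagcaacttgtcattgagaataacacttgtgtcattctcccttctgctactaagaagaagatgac

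Reads were 36 bases long at each end. Of the distinct 36-base stretches in the annotated transcripts of each gene, 39.5% in Gsdmc2, 44.4% in Gsdmc3, 52.5% in Gsdmc4 and 79.1% in Gsdmc occurred in no other gene's transcripts. Gsdmd and Gsdme had 100% and 99.99%. Gsdmc2 shared 49.9% of its stretches with Gsdmc3. The sources used here do not say how reads that fit several copies were counted, so the level of each copy is uncertain, while the sum of the copies is less so. With counts pooled over the libraries of a group, the proportions between copies were nevertheless much alike from group to group. Gsdmc4 held 72.9% of the summed Gsdmc counts in Apc Eif3h, 73.9% in Apc and 74.7% in WT. Gsdmc2 held 22.4%, 20.4% and 18.5%, and Gsdmc3 4.67%, 5.7% and 6.73%, in the same order of groups, out of 107, 807 and 1873 counts. Of the 107 counts in Apc Eif3h, 94 came from replicate 3, and replicates 1, 2 and 4 held 8, 1 and 4. The Apc Eif3h proportions are therefore nearly those of replicate 3 alone. Replicate 3 also held 467 of the 807 counts in Apc and 1040 of the 1873 in WT, so the pooled proportions lean on it in every group. In the 9 single libraries with at least 30 summed counts, Gsdmc4 held 71.6% to 84%, Gsdmc2 13.8% to 22.3% and Gsdmc3 0% to 8.17%.

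**Figure D1:**
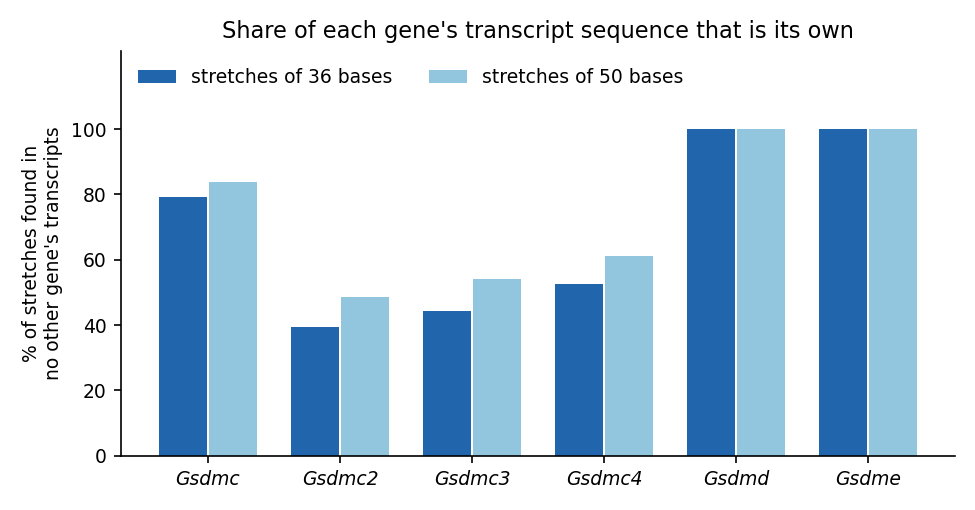
Share of the distinct 36-base and 50-base stretches of each gasdermin gene's annotated transcripts that occur in no other gene's transcripts (percent, y axis), by gene. Gsdmc2, Gsdmc3 and Gsdmc4 lie between 39.5% and 61%, while Gsdmd and Gsdme are at or next to 100%.

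Gsdmc4, the copy with the most counts, was low in Apc Eif3h and spread widely in every group. It was at 0.334, 0.0619, 4.28 and 0.134 CPM in Apc Eif3h libraries, 2.32, 10.7, 18.3 and 1.51 CPM in Apc libraries and 19.3, 18.1, 62 and 12.5 CPM in WT libraries. All 4 Apc Eif3h libraries lay below all 4 WT libraries. Apc overlapped both of the other groups: replicate 3 lay above WT replicate 2, and replicates 1 and 4 lay below Apc Eif3h replicate 3. The group means were 1.2 ± 2.06 CPM in Apc Eif3h, 8.2 ± 7.92 CPM in Apc and 28 ± 22.9 CPM in WT (SD, n = 4 each). The SD was close to the mean or above it in each group, and the highest WT library stood 4.95 times above the lowest.

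Gsdmc2 followed the same order of libraries at a lower level. Its values were 0.201, 0, 1.3 and 0 CPM in Apc Eif3h libraries, 0.623, 2.61, 5.44 and 0.415 CPM in Apc libraries and 4.26, 4.06, 17.4 and 2.06 CPM in WT libraries. Again replicate 3 was the highest library within each of the 3 groups, and again no Apc Eif3h library reached the lowest WT library. Gsdmc3 had 0, 0, 0.248 and 0.0446 CPM in Apc Eif3h libraries, 0, 0.836, 1.63 and 0 CPM in Apc libraries and 1.47, 1.28, 7.07 and 0.33 CPM in WT libraries. A count of 0 allows 3 counts, which corresponds to 0.134 to 0.267 CPM depending on the library, so the lowest of these values cannot be told from each other at this depth. The single count of Gsdmc came from a WT library. Gsdmcl2, annotated as a transcribed pseudogene in GENCODE, had 2 counts in Apc Eif3h, 24 in Apc and 58 in WT.

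**Figure D2:**
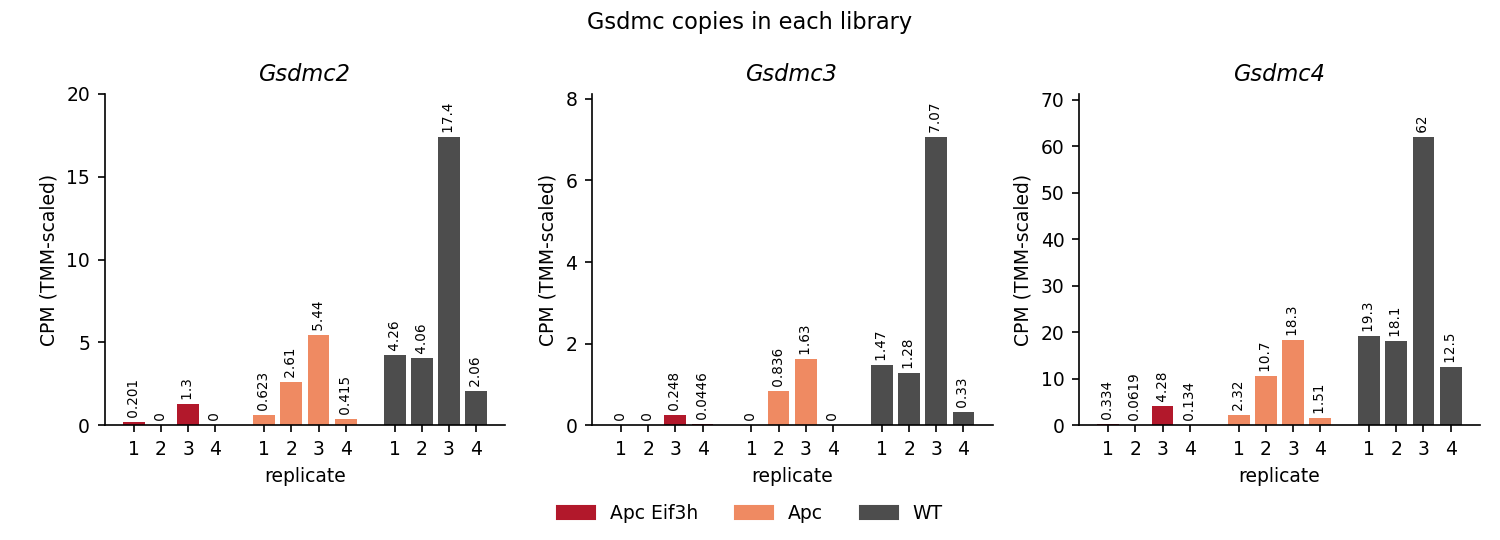
CPM of Gsdmc2, Gsdmc3 and Gsdmc4 in each of the 12 libraries, 1 bar per library, grouped as Apc Eif3h, Apc and WT; each panel has its own linear axis from 0. Replicate 3 is the tallest bar of every group in all 3 panels, at 4.28, 18.3 and 62 CPM for Gsdmc4.

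With the 4 Gsdmc rows summed, the level was 1.65 ± 2.79 CPM in Apc Eif3h, 11.1 ± 11 CPM in Apc and 37.5 ± 33 CPM in WT (SD, n = 4 each). The fitted log2 fold change of the sum was -4.53 (SE 1.13) for Apc Eif3h against WT, -2.79 (SE 1.09) for Apc Eif3h against Apc and -1.74 (SE 0.95) for Apc against WT. These 3 comparisons share samples and are not independent of each other. Single copies gave like values: for Gsdmc4 the fold changes were -4.57 (SE 1.10), -2.82 (SE 1.06) and -1.75 (SE 0.92) in the same order, for Gsdmc2 -4.24 (SE 1.13), -2.67 (SE 1.14) and -1.58 (SE 0.93), and for Gsdmc3 -4.98 (SE 1.35), -3.05 (SE 1.52) and -1.94 (SE 0.98). Fitted values of genes with libraries at 0 depend on the small count that edgeR adds. Replicate 3 of each group decided much of the size. Without Apc Eif3h replicate 3 the sum gave -7.20 against WT and -5.45 against Apc, without WT replicate 3 the fold change of Apc against WT was -0.92, and without Apc replicate 3 it was -2.54, with -1.99 for Apc Eif3h against Apc.

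Gsdmd was the most abundant member and was lower in both mutant groups than in WT. It was at 298, 262, 355 and 272 CPM in Apc Eif3h libraries, 343, 353, 300 and 264 CPM in Apc libraries and 424, 436, 615 and 610 CPM in WT libraries. All 8 mutant libraries lay below all 4 WT libraries, and the ranges of Apc Eif3h and Apc covered each other almost wholly. Means were 297 ± 41.7 CPM in Apc Eif3h, 315 ± 41.3 CPM in Apc and 521 ± 105 CPM in WT (SD, n = 4 each). The log2 fold change was -0.81 (SE 0.16) for Apc Eif3h against WT, -0.73 (SE 0.16) for Apc against WT and -0.09 (SE 0.15) for Apc Eif3h against Apc. Scaled by library totals alone, the values against WT were -0.61 in Apc Eif3h and -0.49 in Apc, in a setting that moved the median of all genes to 0.17 and 0.22.

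Gsdme, which can form pores once granzyme B has cut it, had ranges that overlapped between all groups. It was at 35.6, 18.7, 24.7 and 20.5 CPM in Apc Eif3h libraries, 21.2, 21.3, 18.2 and 18 CPM in Apc libraries and 16, 25, 29.7 and 24.6 CPM in WT libraries. Both the lowest library, WT replicate 1, and the highest, Apc Eif3h replicate 1, fell outside the Apc range. The log2 fold change was 0.06 (SE 0.21) for Apc Eif3h against WT, 0.34 (SE 0.21) for Apc Eif3h against Apc and -0.28 (SE 0.21) for Apc against WT.

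**Figure D3:**
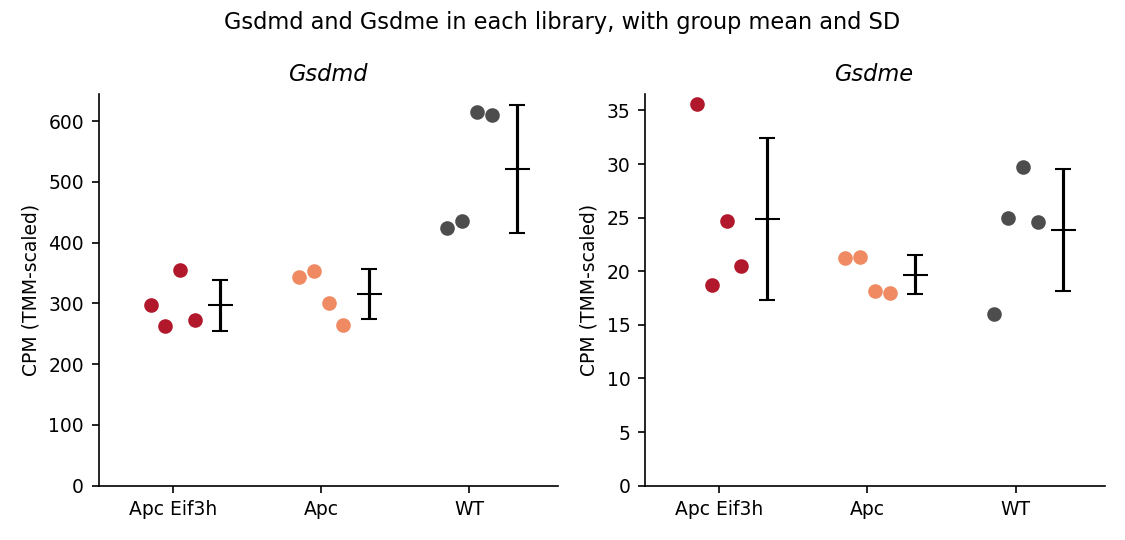
CPM of Gsdmd and Gsdme (linear axes from 0) by group; points are libraries in the order of replicates 1 to 4, and black marks are the group mean with its SD (n = 4). For Gsdmd the 8 mutant libraries lie between 262 and 355 CPM, below the WT libraries at 424 to 615 CPM, and for Gsdme the groups overlap.

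Per kilobase of annotated exon, the order of the levels in WT was Gsdmd at 219 ± 44.3, Gsdmc4 at 13.4 ± 11, Gsdmc2 at 3 ± 3.04, Gsdme at 1.87 ± 0.446 and Gsdmc3 at 1.09 ± 1.32 CPM per kb (SD, n = 4). Gsdmd stood clear of the rest. Gsdmc2, Gsdme and Gsdmc3, which neighbour each other in that order, did not differ beyond their spread. In Apc Eif3h the order was Gsdmd at 125 ± 17.5, Gsdme at 1.95 ± 0.592, Gsdmc4 at 0.576 ± 0.985, Gsdmc2 at 0.162 ± 0.27 and Gsdmc3 at 0.0314 ± 0.0509 CPM per kb. The 12742 exon bases of Gsdme include retained introns, which lowers its value per kilobase. Shared sequence lowers or raises those of the Gsdmc copies by an unknown amount.

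**Figure D4:**
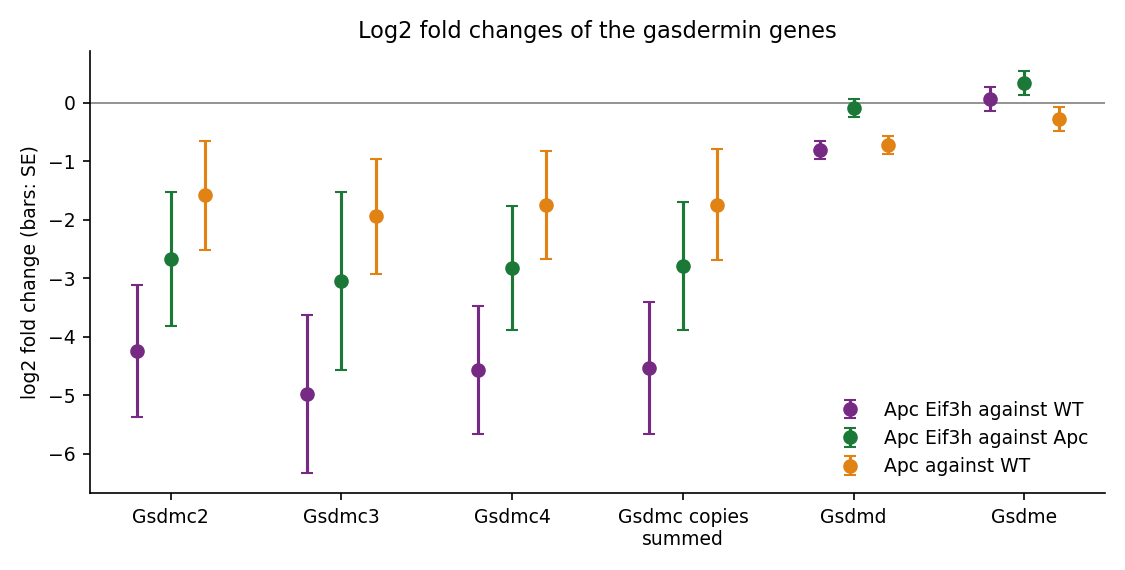
Fitted log2 fold changes (points) with SE (bars) of the 5 tested members and of the summed Gsdmc rows in the 3 comparisons, which share samples. The Gsdmc points run from -4.98 to -1.58, those of Gsdmd lie at -0.81 and -0.73 against WT and at -0.09 for Apc Eif3h against Apc, and those of Gsdme lie within 0.34 of 0.

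Counted by the test across all 17394 genes (edgeR's quasi-likelihood test, adjusted p below 0.05, called a call from here on), 4 of the 5 tested members were called in Apc Eif3h against WT, all lower: Gsdmc2, Gsdmc3, Gsdmc4 and Gsdmd. All 4 also had groups that did not overlap. For Gsdmc3 this rested on library scaling, since Apc Eif3h replicate 3 and WT replicate 4 had 4 counts each (0.248 and 0.33 CPM). In a fit of the Apc Eif3h and WT libraries alone, Gsdmc3 was not called. The background was high, with 57.5% of all genes called in that comparison, 27.8% lower, and 20.7% with groups that did not overlap and lower. In Apc against WT 1 of 5 was called, Gsdmd, which was lower without overlap, beside 51.6% of all genes called, 23.9% lower, and 22% lower without overlap. In Apc Eif3h against Apc 0 of 5 were called and 0 had groups that did not overlap, beside 6.44% of all genes called (3.97% higher, 2.47% lower) and 7.89% higher and 7.26% lower without overlap. There were 2 of 5 at an unadjusted p below 0.05 and 0 called by DESeq2. Without Apc Eif3h replicate 3 that comparison had 2 called members, Gsdmc2 and Gsdmc4. Since the members were chosen with these contrasts known, nothing is read from these counts. The median log2 fold change of the tested members was -4.24 for Apc Eif3h against WT, -2.67 against Apc, and -1.58 for Apc against WT, beside -0.0277, -0.00132 and -0.00948 over all genes tested.

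The Gsdmc copies varied together from library to library. With group means removed, Pearson's r of log2 CPM over the 12 libraries was 0.98 between Gsdmc2 and Gsdmc4, 0.88 between Gsdmc2 and Gsdmc3 and 0.83 between Gsdmc3 and Gsdmc4. These copies share libraries and part of their sequence. Gsdmc4 and Gsdmd had 0.53, Gsdmd and Gsdme 0.60, and Gsdmc4 and Gsdme 0.27.

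Among 12312 other genes, those whose log2 CPM was most like that of Gsdmc4 over the 12 libraries were Capn13, a calpain protease (r = 0.975), Kmt5c, a histone H4 lysine methyltransferase (r = 0.968), and Add1, a membrane skeleton protein (r = 0.963). Capn13 was at 4.14, 2.04, 6.52 and 2.19 CPM in Apc Eif3h libraries, 7.12, 12.1, 12.8 and 6.07 CPM in Apc libraries and 11.9, 13.3, 15.8 and 10.3 CPM in WT libraries. As with Gsdmc4, replicate 3 was the highest library of each group. Most like Gsdmd were Irak2, a kinase of interleukin-1 and Toll-like receptor signalling (r = 0.986), Scamp2, a secretory carrier membrane protein (r = 0.983), and Tmem263 (r = 0.982). Irak2 was at 57.7 to 68.9 CPM in Apc Eif3h, 59.9 to 68.7 CPM in Apc and 85.3 to 110 CPM in WT. Gsdme had less similar neighbours, Tmem222 (r = 0.884), Dbndd2 (r = 0.877) and Flvcr2 (r = 0.867). These values are descriptions over libraries that share group and depth.

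Markers of several cell types also differed between the mutant groups and WT. All marker counts, here and below, stand beside the shares of all genes called. Against WT these were 27.8% lower and 29.7% higher in Apc Eif3h, and 23.9% lower and 27.7% higher in Apc. In Apc Eif3h against Apc they were 2.47% lower and 3.97% higher. In whole tissue, fewer cells of a type and less RNA per cell cannot be told apart. Of 10 villus tip enterocyte markers, 8 were lower in Apc Eif3h than in WT and 9 were lower in Apc than in WT, with 0 called in Apc Eif3h against Apc (edgeR and DESeq2; 0 at an unadjusted p below 0.05). The median log2 fold change of these markers was 0.02 in Apc Eif3h against Apc, where the summed Gsdmc rows had -2.79. Their summed level was 5245 to 8700 CPM in Apc Eif3h, 4398 to 6410 CPM in Apc and 9698 to 16407 CPM in WT. Ada, adenosine deaminase of the villus tip, averaged 269 ± 63.2 CPM in Apc Eif3h and 1012 ± 509 CPM in WT (SD, n = 4 each), a log2 fold change of -1.91 (SE 0.34, edgeR adjusted p = 0.000491). Apc Eif3h replicate 3, which had the most Gsdmc4 of its group, was also the highest of its group in these markers at 8700 CPM and in lower villus enterocyte markers at 23153 CPM. Apc replicate 3 had the most Gsdmc4 of its group and was at 4760 CPM of villus tip markers, within the range of the other 3 Apc libraries. The part of these markers in the gasdermin values was not tested.

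Crypt base stem cell markers moved the other way. All 7 were higher in Apc Eif3h than in WT and in Apc than in WT, with summed levels of 1862 to 2328 CPM in Apc Eif3h, 2630 to 3178 CPM in Apc and 580 to 1006 CPM in WT. Between Apc Eif3h and Apc, 2 of 7 were called and lower: Smoc2, a secreted matrix protein (-0.63, SE 0.08, edgeR adjusted p = 0.00215), and Lgr5, the R-spondin receptor of stem cells (-1.19, SE 0.22, edgeR adjusted p = 0.0102). All 7 tuft cell markers were lower in Apc Eif3h and in Apc than in WT, at 31.3 to 58.2, 37.6 to 56.8 and 81.6 to 95.5 CPM summed in Apc Eif3h, Apc and WT. Goblet cell markers had 5 of 6 lower in Apc Eif3h and 4 of 6 lower in Apc than in WT. Keratinocyte and stomach surface markers, which would go with gasdermin A expression, were at 7.14 to 9.56 CPM in Apc Eif3h, 3.87 to 5.34 CPM in Apc and 4.18 to 7.09 CPM in WT, and only 2 of 8 passed the filter. Krt10 was higher in Apc Eif3h against Apc (0.90, SE 0.16, edgeR adjusted p = 0.00866) and against WT (0.79, SE 0.16, edgeR adjusted p = 0.00136). Krt14 was lower in Apc against WT (-2.30, SE 0.64, edgeR adjusted p = 0.00958), at 0.368 CPM in Apc and 1.63 CPM in WT on average.

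Position along the small intestine is not labelled. Pdx1, a transcription factor of the duodenum, ranged over 0.735 to 11.2 CPM in Apc Eif3h, 1.79 to 8.93 CPM in Apc and 0.25 to 4.96 CPM in WT, and Fabp6, the ileal bile acid binding protein, was at 0.602 CPM or below in every library. Other position markers differed strongly from WT. Of 5 proximal markers 2 were higher in each mutant group than in WT and 1, Gata4, a transcription factor, was lower. Cybrd1, a ferric reductase of the duodenum, averaged 181 ± 108 CPM in Apc Eif3h, 157 ± 175 CPM in Apc and 6.64 ± 1.6 CPM in WT (SD, n = 4 each), with log2 fold changes of 4.77 (SE 0.75, edgeR adjusted p = 0.000203) in Apc Eif3h and 4.57 (SE 0.74, edgeR adjusted p = 0.000358) in Apc against WT. Slc40a1, the iron exporter ferroportin, gave 3.01 (SE 0.46, edgeR adjusted p = 0.000164) in Apc Eif3h and 3.33 (SE 0.47, edgeR adjusted p = 0.000128) in Apc. Gata4 gave -0.30 (SE 0.10, edgeR adjusted p = 0.023) in Apc Eif3h, which was not called when Apc Eif3h replicate 1 or 2 was left out, and -0.40 (SE 0.10, edgeR adjusted p = 0.00589) in Apc. The 1 tested distal marker, the ileal bile acid transporter Slc10a2, was higher too, at 7.49 ± 6.5 CPM in Apc Eif3h, 3.44 ± 0.614 CPM in Apc and 0.62 ± 0.166 CPM in WT (SD, n = 4 each), or 3.56 (SE 0.53, edgeR adjusted p = 0.000142) in Apc Eif3h and 2.44 (SE 0.54, edgeR adjusted p = 0.00238) in Apc against WT. Between Apc Eif3h and Apc 0 of these 6 were called (edgeR and DESeq2; 1, Slc10a2, at an unadjusted p below 0.05, with an adjusted p of 0.0443 when Apc Eif3h replicate 3 was left out). These genes were added after the values were seen. The part of position in the Gsdmc values was not tested.

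The remaining gasdermins were near the limit of detection. Gsdma, the only one of them besides Gsdma2 to be tested, averaged 1.62 ± 0.44 CPM in Apc Eif3h, 1.77 ± 0.3 CPM in Apc and 1.49 ± 0.413 CPM in WT and was called in none of the 3 comparisons (edgeR adjusted p = 0.421 to 0.817). Gsdma2 was at 2.47, 1.3, 1.18 and 1.25 CPM in Apc Eif3h libraries, 1.34, 3.14, 2.01 and 1.14 CPM in Apc libraries and 0.852, 0.997, 0.998 and 0.165 CPM in WT libraries. It was higher in Apc than in WT by 1.34 on the log2 scale (SE 0.46, edgeR adjusted p = 0.0268), a call lost in males only and when WT replicate 4, or either of Apc replicates 2 and 3, was left out. Apc Eif3h against WT gave 1.01 (SE 0.46, edgeR adjusted p = 0.0784), which was a call when scaled by library totals alone. Gsdma3 had 1 count and Pjvk, the gasdermin of hearing, had 5 counts over all libraries.

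Most tested proteases that cut gasdermins were lower in both mutant groups than in WT. Of 9 listed, 7 were tested; 6 fell in Apc Eif3h against WT and 6 in Apc against WT, beside 27.8% and 23.9% of all genes. Casp1, Casp4, Gzma and Gzmb were among them in both comparisons. In Apc Eif3h against Apc 0 of 7 were called, beside 6.44% of all genes (edgeR, with 0 at an unadjusted p below 0.05 and 0 by DESeq2). These counts held when each library was left out in turn and under the other settings of the fit that were tried. Their median log2 fold change was -1.64 against WT in Apc Eif3h and -1.38 in Apc, beside -0.03 and -0.01 over all genes.

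Of the caspases that activate Gsdmd, Casp4 (caspase-11 in mouse), which senses bacterial lipopolysaccharide in the cytosol, fell by 1.64 in Apc Eif3h and 1.61 in Apc against WT (edgeR adjusted p = 0.000529 and 0.000779). Casp1, named after its values were seen because it is the caspase of inflammasomes, was at 83.7, 69.4, 149 and 79.1 CPM in Apc Eif3h libraries, 97, 120, 113 and 70.8 CPM in Apc libraries and 230, 208, 255 and 226 CPM in WT libraries. As for Gsdmd, all 8 mutant libraries lay below all WT libraries. Casp8, which is known to cut human GSDMC, was the tested protease with no call, at 99.8 ± 12.8 CPM in Apc Eif3h, 113 ± 11.7 CPM in Apc and 117 ± 14.8 CPM in WT (SD, n = 4 each).

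The granzymes Gzma and Gzmb, products of cytotoxic lymphocytes, fell by 2.02 and 1.90 in Apc Eif3h and by 1.75 and 1.69 in Apc against WT (edgeR adjusted p = 0.000148, 0.0004, 0.00051 and 0.00108). Gzmb averaged 12.5 ± 2.84 CPM in Apc Eif3h, 14.5 ± 3.03 CPM in Apc and 46.6 ± 21.9 CPM in WT (SD, n = 4 each). Both also stand on the list of 8 T cell and intraepithelial lymphocyte markers, of which 7 were lower in each mutant group than in WT. The share of all genes called lower was 27.8% in Apc Eif3h and 23.9% in Apc. The marker list summed to 81.8 to 129 CPM in Apc Eif3h, 77 to 129 CPM in Apc and 150 to 490 CPM in WT. Its part in the granzyme values was not tested. Elane and Ctsg, neutrophil proteases, had 2 counts and 0 counts over all libraries.

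Inflammasome sensors and adaptors were lower where they were called. Of 12 tested, 7 fell in Apc Eif3h against WT and 6 in Apc against WT, beside 27.8% and 23.9% of all genes, and none rose. In Apc Eif3h against Apc 0 were called by edgeR, beside 6.44% of all genes. There were 2 at an unadjusted p below 0.05, 1 called by DESeq2, and up to 3 called when single libraries were left out. Scaled by library totals alone, 5 fell in Apc Eif3h and 4 in Apc against WT. Naip1, a receptor of the NAIP family that binds bacterial secretion needle protein, averaged 30.1 ± 12.7 CPM in Apc Eif3h, 41.2 ± 5.67 CPM in Apc and 95.4 ± 23.1 CPM in WT (SD, n = 4 each). Its log2 fold change was -1.66 in Apc Eif3h against WT (SE 0.25, edgeR adjusted p = 0.000131) and -1.21 in Apc against WT (SE 0.24, edgeR adjusted p = 0.00137). The NAIP genes are near-identical copies too, so reads may be split between them.

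Nlrp9b, an intestinal sensor of rotavirus RNA, fell by 1.81 in Apc Eif3h against WT (SE 0.32, edgeR adjusted p = 0.000508) and by 1.34 in Apc against WT (SE 0.32, edgeR adjusted p = 0.00389). Pycard, the adaptor ASC that joins sensors to caspase-1, fell by 0.86 in Apc against WT (SE 0.22, edgeR adjusted p = 0.00571), at 107 ± 12.5 CPM in Apc and 194 ± 17.9 CPM in WT (SD, n = 4 each). Naip2, which detects bacterial secretion rod protein, fell by 0.66 in Apc Eif3h against WT (SE 0.10, edgeR adjusted p = 0.000147).

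Transcription factors and interferon genes linked to Gsdmd moved in the same direction as Gsdmd. Of 10 tested, 7 fell in Apc Eif3h against WT and 8 in Apc against WT, beside 27.8% and 23.9% of all genes, and none rose. In Apc Eif3h against Apc 0 were called by edgeR, beside 6.44% of all genes, and 0 by DESeq2. There was 1 at an unadjusted p below 0.05. Scaled by library totals alone, 5 fell in Apc Eif3h and 7 in Apc against WT. Irf2, a factor known to drive Gsdmd transcription, was at 56.3, 65, 70.9 and 61.2 CPM in Apc Eif3h libraries, 50.7, 58.9, 56.6 and 58.7 CPM in Apc libraries and 87.2, 80.8, 91.8 and 98.3 CPM in WT libraries. The mutant and WT libraries did not overlap. Irf2 fell by 0.50 in Apc Eif3h (SE 0.09, edgeR adjusted p = 0.000511) and by 0.67 in Apc (SE 0.09, edgeR adjusted p = 9.41e-05). Irf1, an interferon-induced factor, fell by 0.87 in Apc Eif3h and 0.90 in Apc against WT (SE 0.14 each, edgeR adjusted p = 0.000256 and 0.000277), with 147 ± 26.1 CPM in Apc Eif3h, 144 ± 12 CPM in Apc and 268 ± 42.5 CPM in WT (SD, n = 4 each). Gbp2, a guanylate-binding protein, fell by 1.55 in Apc against WT (SE 0.25, edgeR adjusted p = 0.000299), and Ifngr1, an interferon gamma receptor chain, by 0.38 in Apc Eif3h against WT (SE 0.08, edgeR adjusted p = 0.00239).

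**Figure D5:**
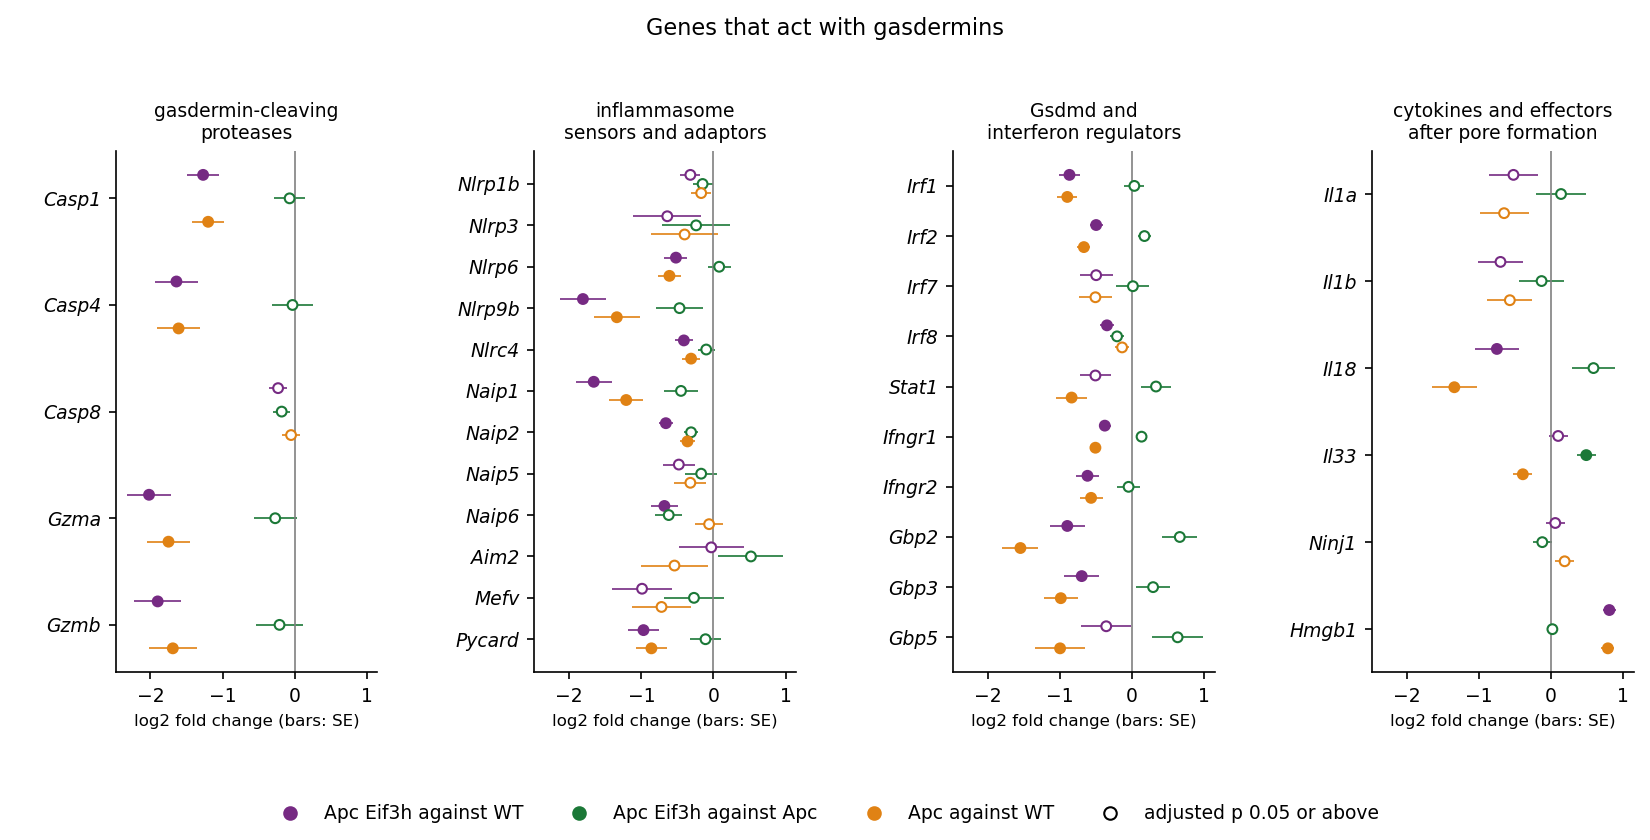
Log2 fold changes (points, x axis) with SE (bars) of tested genes from 4 lists that act with gasdermins, in 3 comparisons that share samples; filled points had an edgeR adjusted p below 0.05. In the protease panel 4 of the 5 genes drawn have filled points left of 0 against WT, and no filled point for Apc Eif3h against Apc.

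Among the cytokines and effectors that follow pore formation, called genes went both ways. Of 6 tested, 1 rose and 1 fell in Apc Eif3h against WT, beside 29.7% higher and 27.8% lower of all genes. In Apc against WT 1 rose and 2 fell, beside 27.7% higher and 23.9% lower. Il18, the cytokine that Gsdmd pores release from epithelium, was at 43.7, 60.6, 119 and 78.5 CPM in Apc Eif3h libraries, 62.6, 53, 54.8 and 30.8 CPM in Apc libraries and 167, 121, 80.9 and 140 CPM in WT libraries. It fell by 1.34 in Apc against WT, without overlap (SE 0.31, edgeR adjusted p = 0.00312). Apc Eif3h replicate 3 overlapped WT, and the call there, -0.75 (SE 0.30, edgeR adjusted p = 0.0482), was lost with 9 of the 12 libraries left out singly (up to 0.132), when scaled by library totals alone, in males only and in a fit of those groups alone. Hmgb1, a nuclear protein released by dying cells, rose by 0.81 in Apc Eif3h (SE 0.09, edgeR adjusted p = 1.16e-05) and by 0.79 in Apc (SE 0.09, edgeR adjusted p = 2.76e-05) against WT. Il33 was the only one of 6 called in Apc Eif3h against Apc (0.49, SE 0.13, edgeR adjusted p = 0.0438), beside 3.97% of all genes called higher. It was at 42.4 ± 8.02 CPM in Apc Eif3h and 30.2 ± 4.41 CPM in Apc (SD, n = 4 each). That call was lost when scaled by library totals alone, without the filter, with the replicate block, in a fit of those groups alone and in males only. It was also lost with any WT library, Apc replicate 1, 3 or 4, or Apc Eif3h replicate 2 or 4 left out (up to 0.136).

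Of the 4 necroptosis genes, 1 rose and 1 fell in Apc Eif3h against WT, beside 29.7% higher and 27.8% lower of all genes. In Apc against WT 1 rose, beside 27.7% of all genes. In Apc Eif3h against Apc 0 were called by edgeR, beside 6.44% of all genes, and 0 by DESeq2. There were 2 at an unadjusted p below 0.05. Ripk3, the kinase that activates the pore-forming Mlkl, rose by 0.72 in Apc against WT (SE 0.12, edgeR adjusted p = 0.000507), at 57.5, 42.1, 52.3 and 52.9 CPM in Apc libraries and 28.7, 28.4, 34.7 and 32.2 CPM in WT libraries. Every Apc library lay above every WT library. In Apc Eif3h against WT it rose by 0.38 (SE 0.12, edgeR adjusted p = 0.0188, lost without WT replicate 1, WT replicate 2 or Apc Eif3h replicate 1). Ripk1, a kinase upstream of Ripk3, fell by 0.22 in Apc Eif3h against WT (SE 0.08, edgeR adjusted p = 0.035), at 53.7 ± 4.97 CPM in Apc Eif3h and 62.6 ± 4.72 CPM in WT (SD, n = 4 each). That call was lost with 5 of the 12 libraries left out singly (up to 0.107), in males only and when scaled by library totals alone. Mlkl was called in none of the 3 comparisons.

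Genes put on a list for the interleukin-4 and interleukin-13 response were called in both directions. Of 12 tested, 5 fell and 2 rose in Apc Eif3h against WT, 2 fell in Apc against WT, and 2 fell in Apc Eif3h against Apc, beside 27.8%, 29.7%, 23.9% and 2.47% of all genes in the same order. These counts rested on single libraries: 2 to 6 fell and 0 to 2 rose in Apc Eif3h against WT with each library left out in turn, 2 to 3 fell and 0 to 2 rose in Apc against WT, and 0 to 3 fell in Apc Eif3h against Apc. The lowest count that fell in Apc Eif3h against WT, 2, came without WT replicate 4. It was 3 when WT replicate 3, Apc Eif3h replicate 3 or Apc Eif3h replicate 4 was left out. The genes that rose there were Sprr2a1 and Sprr2a3, near-identical small proline-rich proteins, and 0 rose without WT replicate 2. Clca1, a goblet cell protein that interleukin-13 induces, averaged 431 ± 100 CPM in Apc Eif3h, 304 ± 78.6 CPM in Apc and 811 ± 183 CPM in WT (SD, n = 4 each) and fell against WT by 0.91 in Apc Eif3h (SE 0.23, edgeR adjusted p = 0.00456) and 1.41 in Apc (SE 0.23, edgeR adjusted p = 0.000364). Il13ra1, a chain of the receptor, fell by 0.46 in Apc Eif3h (SE 0.13, edgeR adjusted p = 0.00914) and 0.51 in Apc (SE 0.13, edgeR adjusted p = 0.00567). In Apc Eif3h against Apc the median log2 fold change of the 12 tested genes was -0.08, and Clca1 was not called. The genes that fell there were Reg3b and Reg3g, antimicrobial lectins that share sequence, at -3.98 (SE 0.86, edgeR adjusted p = 0.0186) and -3.31 (SE 0.89, edgeR adjusted p = 0.0456). These 2 do not stand for the list as a whole. Reg3b averaged 349 ± 157 CPM in Apc Eif3h and 5495 ± 6112 CPM in Apc (SD, n = 4 each). In males only neither was called. Leaving out Apc replicate 3, or Apc Eif3h replicate 2 or 4, ended the call of Reg3b (up to 0.0544). That of Reg3g was lost with 8 of the 12 libraries left out singly (up to 0.126). The cytokines themselves were scarce: Il13 had 6 counts, Il5 14 and Il25 11 over all libraries.

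In the TGF-beta pathway, whose receptor Tgfbr2 is known to restrain Gsdmc expression in mouse colon tumours, few genes were called. Of 12 tested, 3 rose and 2 fell in Apc Eif3h against WT and likewise in Apc against WT, shares near or under those of all genes (29.7% higher and 27.8% lower in Apc Eif3h, 27.7% and 23.9% in Apc). Tgfbr2 was at 141, 211, 104 and 189 CPM in Apc Eif3h libraries, 162, 150, 156 and 227 CPM in Apc libraries and 87.2, 83, 57.9 and 74.9 CPM in WT libraries. Replicate 3, which had the most Gsdmc4 in each group, had the least Tgfbr2 in Apc Eif3h and in WT but not in Apc, where replicate 2 had the least. Tgfbr2 rose by 1.09 in Apc Eif3h (SE 0.21, edgeR adjusted p = 0.000951) and by 1.20 in Apc (SE 0.21, edgeR adjusted p = 0.000657) against WT, and Tgfbr3 fell by 0.87 in Apc Eif3h and 0.64 in Apc (SE 0.13 each, edgeR adjusted p = 0.000172 and 0.00173). Between Apc Eif3h and Apc, where 3.97% of all genes were called higher, the 1 call was Ski, a repressor of SMAD proteins, at 0.23 (SE 0.06, edgeR adjusted p = 0.0367). It was lost when scaled by library totals alone, without the filter, with the replicate block, in a fit of those groups alone and in males only. Leaving out WT replicate 1, any Apc library, or Apc Eif3h replicate 1, 2 or 4 also ended it (up to 0.117).

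Genes beside the loci were compared in the same way. Within 500 kb of the cluster 2 other protein-coding genes were tested. Fam49b, also called Cyrib, was called in none of the 3 comparisons (0.10 for Apc Eif3h against WT, -0.04 against Apc, and 0.14 for Apc against WT). Asap1, a GTPase-activating protein of the ARF family, fell by 0.79 in Apc Eif3h (SE 0.18, edgeR adjusted p = 0.00311) and by 0.49 in Apc (SE 0.18, edgeR adjusted p = 0.0411) against WT. Around Gsdmd, 21 of 32 tested genes were called in Apc Eif3h against WT and 18 in Apc against WT, in both directions, and 1 in Apc Eif3h against Apc, Mapk15 (-1.27, SE 0.29, edgeR adjusted p = 0.0238). Around Gsdme 2 of 5 were called against WT in each mutant group: Npy, neuropeptide Y, lower, and Mpp6, a membrane scaffold protein, higher. On the whole of chromosome 15, which also carries the deleted Eif3h, 59.6% of 674 genes were called in Apc Eif3h against WT, 7.27% against Apc, and 55% in Apc against WT, beside 57.5%, 6.44% and 51.6% of all genes.

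Promoter sequence was at hand for 2 of the 6 members, Gsdmc3 and Gsdme, in RefSeq (build GRCm38.p6, 250 bases before to 50 after the start). The 100 bases before the start of Gsdmc3 are shown for the copies that varied together (chr15:63878559-63878658, minus strand, 5′ to 3′), with a TATAA match in capitals.
Gsdmc3 promoter: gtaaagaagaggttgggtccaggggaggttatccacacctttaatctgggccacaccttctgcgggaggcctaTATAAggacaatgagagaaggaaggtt
The match begins 27 bases before the start, and 24.9% of 32851 promoters held TATAA on either strand. TATAA was added after the sequence had been read. In both windows, searched on both strands, no match was found for the STAT6 core (TTC and GAA with 4 bases between them, in 6.95% of promoters), TTCNNNGAA (other STAT factors, 8.3%), CTTTGA (TCF and LEF factors, 16%), the IRF core (GAAA, 2 bases, GAAA, 3.44%) or CAAAGTC (HNF4, 4.44%). The Gsdmc3 window had 48.3% G and C and the Gsdme window 65.7%. No match says only that these letters are not in these windows.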

How the data were processed

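Gene-level counts of RNA sequencing were analysed for 12 libraries of mouse small intestine, 4 per group, assigned by title and genotype. The authors deposited whole-number counts per gene that were not normalized. Per the submitters' processing notes the tools named were featureCounts 1.6.4, HISAT2 2.1.0, Trim Galore 0.6.4 and FastQC 0.11.8, with GRCm38. For their roles, settings and annotation release, the strand setting and multiply mapping reads: not given in the sources used here. Per the labels' protocols, RNA was isolated on columns and read for 36 cycles from each end.

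Of 55421 identifiers 55240 matched GENCODE M21 (GRCm38), the source of symbols, coordinates and transcripts, and 20439 were at 0 in all libraries. Counts were tested with edgeR 4.0.16 (R 4.3.3): filterByExpr by group, which left 17394 genes, TMM scaling, and a quasi-likelihood fit of all 12 libraries with 1 mean per group. Benjamini-Hochberg adjustment ran over all genes of a comparison, with calls below 0.05. SE is the absolute log2 fold change over the square root of F. Levels are CPM after TMM, and for correlations a prior count of 2 was added before taking log2. Limits from 0 counts cover counting error only. The 18 pairs of libraries within groups all differed by more than sampling noise (chi-square of 16.5 to 47.8 per gene). Coding sequences were aligned with Biopython 1.88 (match 1, mismatch -1, gap open -3, gap extension -0.5); stretches of 36 bases were compared among annotated transcripts only, and protein sequences were not used here.

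The members and the gene lists were chosen with earlier results of these data known. Named genes were the members, every other gasdermin, up to 3 called genes of each list with the smallest p per comparison, called neighbours within 500 kb, Eif3h and Apc, and for each member with a mean log2 CPM of 1 or more the 3 genes with the highest r; the text uses part of these names. The 8 pathway lists held 78 genes, 65 of them tested, and the 11 marker lists those of gut epithelial, immune, stromal, keratinocyte and stomach cells; B cell, macrophage and fibroblast lists are given with the closing observations. Alternatives were other scalings, DESeq2 1.42.0, no filter, a replicate block, only the groups compared, males only, the Gsdmc rows summed, 50-base stretches, 1 Mb neighbourhoods and leaving out each library. Results for some genes of these lists are not reported here; the counts of each list include all of its tested genes.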

Additional observations from a re-analysis of the deposited data

Results flagged for a closer look

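A library was set apart where its gap to the nearest other library of its group took up more of the group's range than Dixon's critical value for 4 libraries. Chance gives this in about 5% of groups of 4, and 24 groups of values were examined, of which 8 were set apart. In Apc Eif3h, replicate 3 stood above the other 3 libraries for Gsdmc2 (0.846 of the range, at 1.3 CPM), Gsdmc4 (0.935, at 4.28 CPM) and the summed Gsdmc rows (0.918, at 5.83 CPM). In WT, replicate 3 stood above the rest for Gsdmc2 (0.856, at 17.4 CPM), Gsdmc3 (0.830, at 7.07 CPM), Gsdmc4 (0.863, at 62 CPM) and the sum (0.859, at 86.5 CPM). The copies share sequence and vary together, so these are not independent of each other. Apc Eif3h replicate 1 stood above its group for Gsdma2 (0.907, at 2.47 CPM). Beside these values, Apc Eif3h replicate 3 had the most Eif3h of its group, 54.6 CPM, and the most Casp1, 149 CPM. The part of either in the Gsdmc values was not tested.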

How the results depend on the processing

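The labels do not say whether a replicate number links libraries of different groups. Libraries were therefore correlated in their deviations from the group mean of log2 CPM, not in their levels. Over all tested genes, same-numbered libraries had correlations of these deviations of -0.14 to 0.03 between Apc and WT. Between Apc Eif3h and Apc they had -0.03 to 0.24, and between Apc Eif3h and WT -0.10 to 0.19. Over genes with a mean log2 CPM of at least 1, the ranges were -0.145 to 0.0334, -0.0412 to 0.313 and -0.103 to 0.242. In the same order, 0, 4 and 1 of 8 libraries correlated best with their own number. These values cannot decide whether the numbers pair the libraries. With the replicate number as a block, 8711, 911 and 9790 genes were called for Apc against WT, for Apc Eif3h against Apc and for Apc Eif3h against WT, beside 8968, 1121 and 10000 without it; 4 members were called in Apc against WT (Gsdmc2, Gsdmc3, Gsdmc4 and Gsdmd), 2 in Apc Eif3h against Apc (Gsdmc2 and Gsdmc4) and 2 pathway genes in Apc Eif3h against Apc. The block also called Gsdma2 in Apc Eif3h against WT and did not call Il18 there. For the summed Gsdmc rows in Apc against WT it gave -2.01 (SE 0.53), beside -1.74 (SE 0.95) without it.

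In Apc Eif3h against Apc, DESeq2 called 1775 genes and a fit of males only 591, and the pathway genes called numbered 4 as reported, 2 without the filter, 1 in a fit of those groups alone and 0 in males only. Stretches of 50 bases raised the share found in no other gene to 83.9% for Gsdmc, 48.7% for Gsdmc2, 54% for Gsdmc3, 61% for Gsdmc4 and 100% for Gsdme. Taking neighbours within 1 Mb gave 2 called genes of 3 tested by the Gsdmc cluster against WT in each mutant group. By Gsdmd, 44 of 61 tested were called in Apc Eif3h and 40 in Apc. Of all genes, 57.5% were called in Apc Eif3h against WT and 51.6% in Apc against WT. Leaving out each library in turn gave 7775 to 9359, 379 to 1641 and 8895 to 10087 genes called for Apc against WT, for Apc Eif3h against Apc and for Apc Eif3h against WT. In the same order it gave 1 to 1, 0 to 2 and 4 to 4 members called, 28 to 34, 0 to 6 and 30 to 36 pathway genes called, and -2.54 to -0.92, -5.45 to -1.99 and -7.20 to -3.70 for the summed Gsdmc rows. Scaled by library totals alone, 74.3%, 51.1% and 67.8% of calls were higher, beside 53.7%, 61.6% and 51.7%. No result past the threshold changed sign under these alternatives. The cause of these shifts was not tested. Depth limits Gsdmc3 and the lowest Gsdmc2 and Gsdmc4 libraries, which hold a handful of counts or none.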

Other observations

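Other cell types listed as possible sources of RNA also differed between groups. Their counts stand beside 27.8% of all genes called lower in Apc Eif3h against WT and 23.9% in Apc against WT. Macrophage and neutrophil markers, whose cells carry inflammasomes, summed to 100 to 264 CPM in Apc Eif3h, 123 to 154 CPM in Apc and 132 to 441 CPM in WT, and 3 of 5 tested were lower against WT in each mutant group. Adgre1, a macrophage receptor, averaged 6.58 ± 0.478 CPM in Apc Eif3h, 9.16 ± 0.692 CPM in Apc and 18.1 ± 7.24 CPM in WT (SD, n = 4 each). Fibroblast markers summed to 521 to 709 CPM in Apc Eif3h, 719 to 1230 CPM in Apc and 821 to 1716 CPM in WT, with 5 of 6 lower in Apc Eif3h against WT and 1 of 6 lower in Apc against WT. B and plasma cell markers summed to 309 to 1391 CPM in Apc Eif3h, 355 to 944 CPM in Apc and 813 to 2762 CPM in WT, and 1 of 6 was lower in each mutant group against WT, Jchain, which was no longer called in Apc with WT replicate 1 or any of Apc replicates 1, 2 and 4 left out. Pooled counts of 2 pseudogene rows next to the Gsdmc genes, not scaled to depth, had the same order of groups. In Apc Eif3h, Apc and WT there were 2, 24 and 58 counts of Gsdmcl2 and 3, 10 and 14 counts of Gsdmcl-ps. Of the 58, WT replicate 3 held 37. Gsdmcl-ps was at 0.104 to 0.178 CPM in Apc and 0 to 0.62 CPM in WT, so these groups overlapped, and WT replicate 1 was the highest. The part of the pseudogene rows in the Gsdmc values, and that of these cell types in the gasdermin values, was not tested.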
